A study of Mus musculus with 9 samples.

Results

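The respiratory chain genes described here are the 96 of 32286 features whose symbols name subunits of the mitochondrial respiratory complexes I to IV or of the ATP synthase, complex V. They were taken by name and not by any measured value: Nduf symbols with a, b, c, s or v and a number, the 4 Sdh genes, symbols that start with Uqcr or Atp5, Cox genes from Cox4 to Cox8 with an a, b or c, and the mitochondrial transcripts mt-Nd, mt-Co, mt-Cytb and mt-Atp. Of these, 83 are encoded in the nucleus, with 38 in complex I, 4 in complex II, 8 in complex III, 16 in complex IV and 17 in complex V. The other 13 are encoded in the mitochondrial genome, with 7 in complex I, 1 in complex III, 3 in complex IV and 2 in complex V. The names set the grouping, so that Ndufa4 and Ndufa4l2 are counted with complex I although NDUFA4 is now known as a subunit of complex IV, and Cox4i1 and Cox4i2, the alternative forms of another complex IV subunit, fall outside it.

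The study transplanted 168FARN cells, a mouse mammary tumour line, into the mammary fat pads of BALB/c mice and sequenced suspensions of 9 primary tumours, cleared of dead cells and debris on a Percoll density gradient, by droplet-based single-cell RNA-seq. In 3 tumours the transplanted cells were wild type (WT). In another 3 they had been edited in Kmt2c (Kmt2c KO) and in the last 3 in Kmt2d (Kmt2d KO), paralogous genes for enzymes that methylate histone H3 at enhancers. All tumour cells carried H2BMc, a histone H2B-mCherry reporter, and the stroma came from hosts without a knockout. Each knockout population was made once, from pooled guides and sorting, so that the tumours replicate the mouse and not the knockout.

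Complexes I, III and IV pass electrons to oxygen and pump protons across the inner mitochondrial membrane, complex II feeds electrons in from succinate without pumping, and complex V uses the proton gradient to make ATP. Complex II is built from nuclear genes alone, whereas the other complexes join nuclear subunits to a few that the mitochondrial genome encodes and that are transcribed together as long precursors. Nuclear subunit genes are known targets of NRF1, ETS-family factors and YY1, and low oxygen is known to switch some subunits to alternative forms.

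RefSeq promoters (build GRCm38.p6, 250 bases before to 50 bases after the start) were matched for 69 of the 83 nuclear members, which hold 74 promoters. The letters GCGCATG, taken from the core of the NRF1 motif, were in 17.6% of the members' promoters and in 3.91% of all 32851, searched on both strands. The ETS letters CCGGAAG were in 23.0% and 8.86%, the YY1 letters AAGATGGC in 13.5% and 2.75%, and ACGTG, the core of the hypoxia response element, in 25.7% and 19.6%. The NRF1 letters were in the promoters of 13 members, in 5 of them on the other strand only. For the 6 in which they lie on the gene's strand and before the start, 60 bases around the match are shown because NRF1 is a known regulator of this gene group, with the match in capitals and each read 5′ to 3′ along the gene. They are chr15:102671055-102671114 (minus strand) for Atp5g2, chr5:108434415-108434474 (minus strand) for Atp5k, chr1:36691411-36691470 (plus strand) for Cox5b, chr5:115349086-115349145 (minus strand) for Cox6a1, chr17:56717677-56717736 (plus strand) for Ndufa11 and chr4:40279464-40279523 (minus strand) for Ndufb6.
Atp5g2: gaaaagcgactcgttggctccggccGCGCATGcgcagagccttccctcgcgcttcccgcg
Atp5k: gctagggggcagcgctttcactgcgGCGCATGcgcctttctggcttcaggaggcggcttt
Cox5b: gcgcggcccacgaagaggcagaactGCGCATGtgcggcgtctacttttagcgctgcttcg
Cox6a1: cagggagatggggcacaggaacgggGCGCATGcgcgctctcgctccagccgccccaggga
Ndufa11: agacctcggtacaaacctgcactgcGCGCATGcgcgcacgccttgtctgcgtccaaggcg
Ndufb6: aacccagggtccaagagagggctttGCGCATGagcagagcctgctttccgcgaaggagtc

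The 250 bases before the start are shown for 2 genes on which the results below turn. Ndufa4 (chr6:11907451-11907700, minus strand), the nuclear member that fell most in Kmt2c KO tumour cells apart from the barely detected Cox7a1, held none of the letters searched. Atp5g1 (chr11:96075632-96075881, minus strand), which fell most in hypoxic tumour cells, held ACGTG at positions -86, -44 and -43 from the start, the last 2 on opposite strands of CACGTG, in capitals below. A match is a description of the letters and not a binding site.
Ndufa4: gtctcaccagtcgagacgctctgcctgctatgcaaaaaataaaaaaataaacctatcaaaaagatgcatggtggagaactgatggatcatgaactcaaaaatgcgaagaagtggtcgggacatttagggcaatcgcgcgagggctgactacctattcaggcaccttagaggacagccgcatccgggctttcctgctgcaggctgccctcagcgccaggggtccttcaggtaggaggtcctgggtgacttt
Atp5g1: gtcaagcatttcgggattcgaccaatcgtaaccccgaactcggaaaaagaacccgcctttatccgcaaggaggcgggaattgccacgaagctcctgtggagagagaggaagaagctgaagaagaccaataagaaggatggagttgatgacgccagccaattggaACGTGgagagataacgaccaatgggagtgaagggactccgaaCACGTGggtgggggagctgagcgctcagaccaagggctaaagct

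Tumour cells were taken as the 16707 of 58645 kept cells with at least 1 unique molecular identifier (UMI) of H2BMc, 361 to 3434 per tumour. They held 231692188 UMIs, 9779795 to 47951145 per tumour, with a median of 8661 to 24081 UMIs per cell. At least 1 UMI of H2BMc was also held by 13.4% of cells with endothelial markers and 12.9% of cells with macrophage markers, against 1.50% with T and NK markers. Krt8 was detected in 92.6% to 95.3% of H2BMc-positive cells of WT, 74.0% to 75.9% of Kmt2c KO and 78.5% to 85.0% of Kmt2d KO libraries. Krt8 was at 550 to 569 counts per 1000000 UMIs (CPM) in WT tumour cells, 235 to 339 CPM in Kmt2c KO and 304 to 466 CPM in Kmt2d KO tumour cells, whereas Krt18, its usual partner, was at 0.13 CPM over all 9 libraries. Kmt2c stood at 43.9, 42.0 and 57.6 CPM in Kmt2c KO and 48.1, 49.1 and 48.1 CPM in WT cells, and Kmt2d at 25.9, 31.9 and 24.3 CPM in Kmt2d KO and 21.4, 19.0 and 14.9 CPM in WT cells. Small indels can leave a transcript in place, so that these levels do not check the labels. Kmt2d KO library 2 stood apart from the other Kmt2d KO libraries, with a chi-square per degree of freedom over genes of 59.2 and 77.3 against 11.4 between those, and results that rest on it are given with and without it. Pairs of libraries shared 2 to 206 cell barcodes, at most 2.28% of the smaller library.

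In H2BMc-positive cells the nuclear members summed to 28723, 27586 and 29637 CPM across WT libraries 1, 2 and 3, to 27306, 25035 and 23019 CPM for Kmt2c KO and to 26470, 25076 and 26895 CPM for Kmt2d KO. No knockout library reached the lowest WT library. UMIs were not divided by transcript length, so that sums are compared between groups and not between complexes. By complex, nuclear complex V summed to 10621 ± 427 CPM in WT cells, against 9038 ± 846 CPM for Kmt2c KO and 9553 ± 304 CPM for Kmt2d KO (mean ± SD, n = 3 each). Nuclear complex I stood at 8291 ± 264, 7359 ± 557 and 7718 ± 405 CPM in the same order. For complex II, which is wholly nuclear, the sums were 624 ± 24.5, 504 ± 40.5 and 567 ± 30.3 CPM. Complex III stood at 2378 ± 105, 1992 ± 171 and 2109 ± 80.7 CPM, and complex IV at 6735 ± 236, 6227 ± 534 and 6200 ± 142 CPM.

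The mitochondrially encoded members varied far more between knockout tumours than between WT tumours. All 13 together summed to 33579 ± 738 CPM in WT cells, against 30044 ± 4039 CPM for Kmt2c KO and 31821 ± 5759 CPM for Kmt2d KO, so that the groups overlapped. The mitochondrial share of complex I stood at 7560 ± 87.1, 6232 ± 1215 and 6953 ± 1597 CPM, mt-Cytb of complex III at 6535 ± 89.8, 5271 ± 480 and 6115 ± 1041 CPM, complex IV at 14883 ± 684, 14312 ± 1447 and 14500 ± 2159 CPM, and complex V at 4602 ± 111, 4229 ± 1026 and 4253 ± 987 CPM. The ratio of mitochondrial to nuclear member UMIs was 1.17, 1.19 and 1.15 in WT libraries 1, 2 and 3, 1.00, 1.12 and 1.51 in Kmt2c KO libraries and 0.987, 1.50 and 1.18 in Kmt2d KO libraries. Thus Kmt2c KO library 3 and Kmt2d KO library 2 were high and Kmt2c KO library 1 and Kmt2d KO library 1 were low, whereas WT libraries lay close together. Cells with 15% or more mitochondrial counts had been left out, which removed 6.28%, 0.964% and 22.7% of H2BMc-positive cells in WT libraries 1, 2 and 3, 1.21% to 2.26% in Kmt2c KO and 2.37% to 5.85% in Kmt2d KO libraries. Without that limit the ratio in WT libraries was 1.25, 1.20 and 1.51, so that the WT libraries no longer lay close together.

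**Figure D1:**
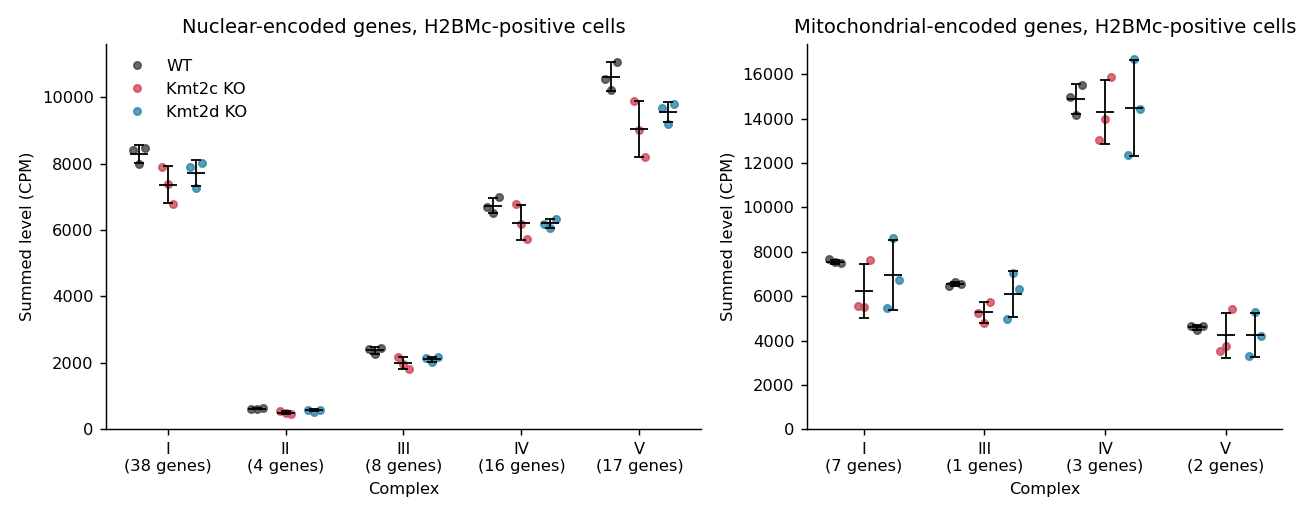
Summed level of the members of each complex (y axis, CPM in H2BMc-positive cells, from 0) for nuclear genes (left) and mitochondrially encoded genes (right). Each point is a library, coloured by genotype, and bars give the mean ± SD of 3; nuclear complex V lies at 10621 ± 427 in WT and 9038 ± 846 in Kmt2c KO cells, and the knockout points of the right panel spread more widely than the WT points.

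To ask whether loss of Kmt2c changed these genes in tumour cells, UMI sums per library were tested across 14089 genes with edgeR, with a Benjamini-Hochberg adjusted p below 0.05 as the threshold. In Kmt2c KO against WT cells 20 of the 93 members tested passed, 18 lower and 2 higher. Among all genes tested 18.7% passed, 9.17% lower and 9.57% higher, so that the share of members that passed was near the background and their direction was mostly downward. Of the 80 nuclear members tested, 17 fell and 2 rose, 64 had a negative log2 fold change and their median was -0.19, against -0.004 over all genes. The nuclear median stayed between -0.23 and -0.10 in 24 alternatives of cells, scaling, tool and libraries. The values of all 3 Kmt2c KO libraries lay below all 3 WT libraries for 38 of the 80 nuclear members, where 21.3% of all genes did so. Complex II had a median of -0.34 with 1 of 4 members called, complex V -0.24 with 4 of 17, complex III -0.23 with 2 of 8, complex I -0.14 with 6 of 38 lower and 1 higher, and complex IV -0.14 with 4 of 13 lower and 1 higher. Cox6b2, Cox8b and Cox8c were too low to be tested in tumour cells, with 5, 1 and 0 UMIs.

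Apart from Cox7a1, which was barely detected, Ndufa4 had the largest fall. It stood at 362, 338 and 358 CPM in WT libraries 1, 2 and 3, at 181, 167 and 127 CPM in Kmt2c KO libraries and at 287, 188 and 303 CPM in Kmt2d KO libraries. Every Kmt2c KO library was below every Kmt2d KO library, and both groups were below WT. All Kmt2c KO libraries lay below all WT libraries for 21.3% of all genes, and the shares for Kmt2d KO are not given. By edgeR Kmt2d KO was not called against WT (log2 fold change -0.47 ± 0.19, SE, adjusted p = 0.23). It was not called against Kmt2c KO either (0.68 ± 0.19, adjusted p = 0.12). The log2 fold change of Kmt2c KO against WT was -1.15 ± 0.19 (SE, adjusted p = 0.0036), and Ndufa4 passed in 24 of 24 alternatives, with values from -1.24 to -0.99. The gene lies at chr6:11900372-11907450 (GRCm38.p6). AA467197, a paralogue of Ndufa4 that lies outside the rule and is named here after its values were seen, was at 58.2 ± 8.53 CPM in WT and 81.9 ± 14.8 CPM in Kmt2c KO cells (SD, n = 3 each, log2 fold change 0.48 ± 0.21, adjusted p = 0.13).

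Other members counted with complex I by name had smaller differences. Ndufb5, an accessory subunit of the membrane arm, was at 270, 293 and 294 CPM in WT and 224, 194 and 181 CPM in Kmt2c KO libraries (-0.52 ± 0.11, adjusted p = 0.0101). Ndufa3 was at 241, 191 and 225 CPM against 162, 149 and 137 CPM (-0.55 ± 0.11, adjusted p = 0.0081). In both genes the WT and Kmt2c KO libraries did not overlap. Ndufc1 and Ndufa5 also fell, by 0.45 and 0.29 on the log2 scale. The core subunits Ndufs1 and Ndufv1, of the arm that oxidises NADH, were not called (-0.18 ± 0.08, adjusted p = 0.15, and -0.14 ± 0.15, adjusted p = 0.54).

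All 4 genes of succinate dehydrogenase, complex II, were lower in each Kmt2c KO library than in any WT library. Among all genes 21.3% were. Sdhc, a membrane anchor, was at 130, 118 and 131 CPM in WT and 92.4, 85.9 and 86.3 CPM in Kmt2c KO libraries, and it passed the test (-0.52 ± 0.12, adjusted p = 0.0139). Sdhd, the other anchor, was at 131, 127 and 147 CPM against 115, 105 and 93.6 CPM (-0.37 ± 0.13, adjusted p = 0.075). The flavoprotein gene Sdha (-0.32 ± 0.11, adjusted p = 0.069) and the iron-sulfur subunit gene Sdhb (-0.19 ± 0.09, adjusted p = 0.16) did not pass either. In complex III, Uqcrc2, a core protein, fell from 128, 126 and 127 CPM to 96.0, 87.3 and 88.9 CPM (-0.49 ± 0.08, adjusted p = 0.0041) and Uqcr11 fell by 0.35 on the log2 scale. Its partner Uqcrc1 (-0.21 ± 0.13) and the Rieske protein gene Uqcrfs1 (-0.24 ± 0.14) were not called.

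In complex IV, 4 nuclear members fell and 1 rose. Cox6c was at 734, 685 and 710 CPM in WT and 537, 508 and 461 CPM in Kmt2c KO libraries (-0.50 ± 0.10, adjusted p = 0.0088). Cox7a2l was at 307, 332 and 322 CPM against 225, 220 and 201 CPM (-0.57 ± 0.12, adjusted p = 0.0106). Cox6b1 was at 631, 595 and 621 CPM against 510, 481 and 495 CPM (-0.32 ± 0.07, adjusted p = 0.0138). The muscle-type form Cox7a1 was near the detection limit in all groups, at 2.40, 1.73 and 2.56 CPM against 0.88, 0.62 and 0.50 CPM (-1.71 ± 0.36, adjusted p = 0.0104). The other muscle-type form, Cox6a2, was higher in Kmt2c KO cells at 1.26, 2.59 and 3.19 CPM, against 0.10, 0 and 0.51 CPM in WT cells (3.67 ± 0.81, adjusted p = 0.0122). Their ubiquitous counterparts Cox7a2 (0.01 ± 0.08) and Cox6a1 (-0.14 ± 0.12) were not called, nor were Cox5a (-0.21 ± 0.15), Cox5b (-0.11 ± 0.09) and Cox8a (0.12 ± 0.11). Ndufa4l2, the low-oxygen counterpart of Ndufa4, stood at 2.70, 3.54 and 2.35 CPM in WT and 4.11, 4.40 and 4.66 CPM in Kmt2c KO cells (0.59 ± 0.18, adjusted p = 0.042). Ndufa4l2 passed in 13 of 24 alternatives, and the mural marker list, of cells that express it strongly, was at 0.30 to 0.97 CPM in WT and 0.76 to 5.45 CPM in Kmt2c KO H2BMc-positive cells, a difference whose part in the result was not tested.

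In the ATP synthase, Atp5a1, the alpha subunit of its catalytic head, was at 406, 402 and 462 CPM in WT and 293, 275 and 238 CPM in Kmt2c KO libraries (-0.66 ± 0.12, adjusted p = 0.0054). Its catalytic partner Atp5b was at 1276, 1222 and 1413 CPM against 1238, 1154 and 944 CPM, which overlap (-0.23 ± 0.13, adjusted p = 0.25). Atp5mpl, a small membrane subunit, was at 518, 481 and 519 CPM against 361, 327 and 355 CPM (-0.54 ± 0.08, adjusted p = 0.0025). Atp5f1 and Atp5md also fell, by 0.47 and 0.33 on the log2 scale. The 3 genes for the identical ring subunit, Atp5g1 (-0.12 ± 0.11), Atp5g2 (-0.24 ± 0.08) and Atp5g3 (-0.29 ± 0.12), were not called. The inhibitor of the ATP synthase, Atp5if1 (listed as Atpif1), lies outside the rule and stood at 261, 262 and 262 CPM in WT and 253, 228 and 248 CPM in Kmt2c KO cells, and none of the 6 subunit genes outside the rule was called.

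Of the 13 mitochondrially encoded members, mt-Nd3 of complex I alone was called in Kmt2c KO cells. It stood at 411, 362 and 367 CPM in WT libraries, 211, 212 and 233 CPM for Kmt2c KO and 252, 292 and 286 CPM for Kmt2d KO, so that the 3 genotypes did not overlap. The log2 fold change was -0.80 ± 0.08 (adjusted p = 0.00044), and mt-Nd3 passed in 24 of 24 alternatives. The other 12 did not move as a block: mt-Nd1 (-0.37 ± 0.17), mt-Nd2 (-0.21 ± 0.13), mt-Nd4l (-0.37 ± 0.19), mt-Nd5 (-0.17 ± 0.16), mt-Cytb (-0.32 ± 0.11), mt-Co2 (-0.14 ± 0.15), mt-Co3 (-0.23 ± 0.09) and mt-Atp8 (-0.61 ± 0.20, adjusted p = 0.057) had negative values, and mt-Nd4 (0.12 ± 0.12), mt-Nd6 (0.15 ± 0.35), mt-Co1 (0.28 ± 0.12) and mt-Atp6 (0.30 ± 0.16) positive ones. The ratio of mt-Atp8 to mt-Atp6 UMIs was 1.49, 1.16 and 1.10 in WT libraries, 0.682, 0.626 and 0.677 in Kmt2c KO and 0.665, 0.841 and 0.739 in Kmt2d KO libraries, with every knockout library below every WT library. These genes overlap on the mitochondrial genome and lie on 1 shared transcript, as do mt-Nd4l and mt-Nd4, so that how their reads were divided between them is uncertain. For mt-Nd4l over mt-Nd4 the ratios were 3.84, 4.36 and 3.29 across WT libraries, 2.48, 2.51 and 3.08 for Kmt2c KO and 2.86, 3.64 and 3.08 for Kmt2d KO.

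Depth, cell state and other cell types also differed between these groups. Median UMIs per H2BMc-positive cell were 13729 to 24081 in WT, 8661 to 11824 in Kmt2c KO and 11222 to 14789 in Kmt2d KO libraries. H2BMc, which marks the gate, was at 72.7 to 113 CPM in WT, 142 to 153 CPM in Kmt2c KO and 90.6 to 117 CPM in Kmt2d KO cells. Between 22.0% and 36.2% of Kmt2c KO tumour cells lay above a single hypoxia limit, against 7.22% to 9.75% in WT and 4.89% to 18.9% in Kmt2d KO tumours. Below that limit 19 members were called, 16 lower and 3 higher, where 16.8% of all genes were, with a nuclear median of -0.15 and Ndufa4 at -1.08. Outside the hypoxic gate set within each library 19 were called, 17 lower and 2 higher, where 17.8% of all genes were, with a nuclear median of -0.20 and Ndufa4 at -1.14. The endothelial list summed to 5.90 to 15.2 CPM in WT and 13.7 to 18.3 CPM in Kmt2c KO tumour cells, and the macrophage list to 7.87 to 17.6 and 13.5 to 30.9 CPM. The limit on mitochondrial counts removed 35.8%, 15.7% and 57.0% of all cells in WT libraries 1, 2 and 3, 8.67% to 13.9% in Kmt2c KO and 17.0% to 21.3% in Kmt2d KO libraries. Among cells with UMIs of both H2BMc and Krt8, 20 members were called, where 16.8% of all genes were. With no mitochondrial limit 20 members were called, where 17.6% of all genes were, and the nuclear median was -0.17 and the mitochondrial median -0.33. Without WT library 1 or WT library 3 the count of called members was 12, where 10.1% and 9.5% of all genes were called, and without Kmt2d KO library 2, which shares the estimate of spread, it was 34, where 29.1% were. In the genes that build and control the chain, 3 of 43 assembly factors rose and 3 fell. Among all genes 9.57% were called higher and 9.17% lower. The factors that rose were Surf1 by 0.50, Coa7 by 0.48 and Ndufaf3 by 0.29 on the log2 scale. Those that fell were Ndufaf2 (-0.87 ± 0.12) and Nubpl (-0.51 ± 0.10), both of complex I assembly, and Cox20 (-0.73 ± 0.08) of complex IV assembly. Of 15 regulators tested, the coactivator gene Pprc1 rose by 0.32, and Nrf1, Tfam and Ppargc1b were not called.

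**Figure D2:**
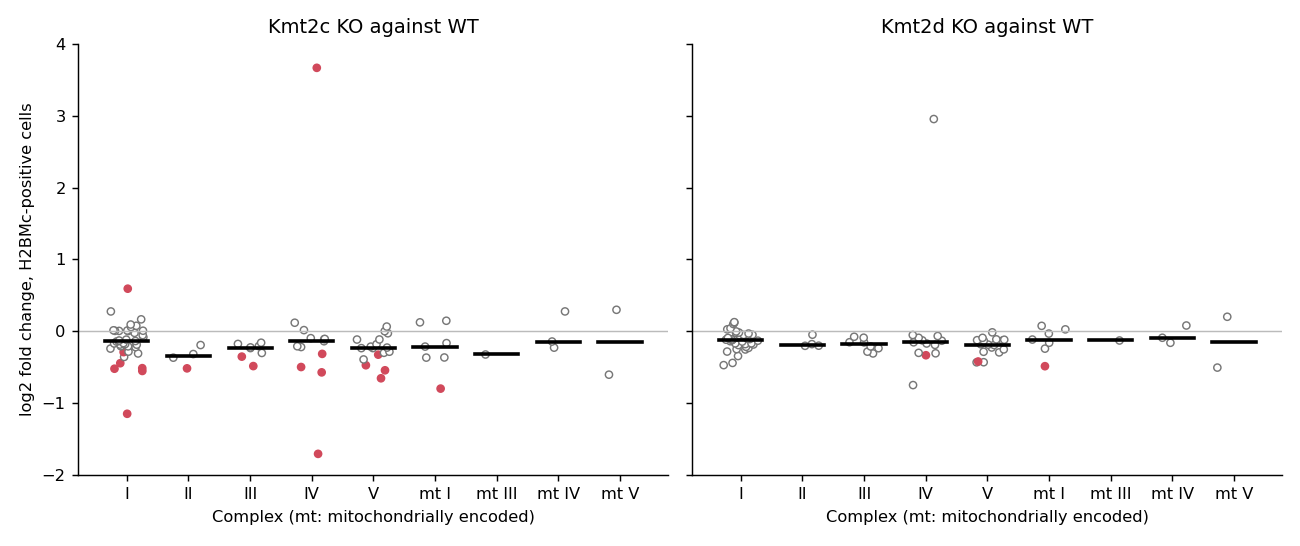
Log2 fold change of each tested member (points) in H2BMc-positive cells of Kmt2c KO (left) and Kmt2d KO (right) against WT tumours, by complex, with nuclear complexes first and mitochondrially encoded genes (mt) after them. Filled red points passed an adjusted p below 0.05 in edgeR and black lines are medians; most nuclear points lie below 0 in both panels, 20 members are filled on the left and 3 on the right.

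In Kmt2d KO against WT tumour cells 3 of 93 members were called, all lower, where 2.27% of all genes were called and 1.23% were lower. They were mt-Nd3 (-0.49 ± 0.08, adjusted p = 0.0138), Atp5mpl at 364, 426 and 369 CPM (-0.42 ± 0.08, adjusted p = 0.0277) and Cox6b1 at 487, 512 and 497 CPM (-0.33 ± 0.07, adjusted p = 0.0414). Each of these 3 was also lower in Kmt2c KO cells, a comparison that shares the WT libraries. Of the 80 nuclear members, 74 had a negative log2 fold change, with a median of -0.14 against 0.005 over all genes. DESeq2 called 10 members, where 4.99% of all genes were called. The edgeR calls depended on single libraries: none remained without any 1 of the WT libraries or without Kmt2d KO library 1. The shares of all genes called in those fits are not given, so that this loss cannot be read as particular to the members. Without Kmt2d KO library 2, 8 members were called, all lower, where 5.79% of all genes were. Those were mt-Atp8 (-0.74 ± 0.16), Atp5k (-0.57 ± 0.11), mt-Nd3 (-0.52 ± 0.09), Atp5mpl (-0.49 ± 0.08), mt-Nd1 (-0.48 ± 0.11), Ndufc2 (-0.40 ± 0.08), Atp5j2 (-0.37 ± 0.09) and Cox6b1 (-0.35 ± 0.08). The assembly factor Ndufaf2, lower in Kmt2c KO cells as well, had a log2 fold change of -0.57 (adjusted p = 0.031), and no other assembly factor and no regulator was called.

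Compared directly, Kmt2d KO and Kmt2c KO tumour cells did not differ in any member by edgeR, where 0.0781% of all genes were called. At an unadjusted p below 0.05 there were 10 members of 93, where 17.8% of all genes were, and DESeq2 called 2, where 4.12% were. Without Kmt2d KO library 2, 10 members were called, all higher in Kmt2d KO than in Kmt2c KO cells, where 19.7% of all genes were called. Among them were Ndufa4 (0.87 ± 0.14, adjusted p = 0.00098), Sdhc (0.44 ± 0.09), Atp5f1 (0.40 ± 0.12), Cox7a2l (0.39 ± 0.10), Sdha (0.37 ± 0.09), Ndufb5 (0.35 ± 0.11), mt-Nd3 (0.28 ± 0.09), Uqcrc2 (0.26 ± 0.08) and the low gene Cox7a1 (1.10 ± 0.34). With all 9 libraries the log2 fold change of Ndufa4 was not past the threshold, and Kmt2d KO library 2 lay at 188 CPM, close to the Kmt2c KO libraries.

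The stroma of these tumours carries no knockout, so the members were also compared by genotype of the tumour within cells gated by endothelial or macrophage markers, a comparison added after the values in tumour cells had been seen. Ndufa4 was lower there too. In endothelial-gated cells it stood at 325, 279 and 308 CPM in WT tumours (113, 98 and 125 UMIs), at 170, 78.1 and 90.0 CPM in Kmt2c KO tumours (26, 16 and 16 UMIs) and at 275, 79.7 and 200 CPM in Kmt2d KO tumours (73, 18 and 65 UMIs). All Kmt2c KO libraries were below all WT libraries, and the log2 fold change was -1.45 ± 0.34 (adjusted p = 0.0171). In macrophage-gated cells the values were 355, 303 and 388 CPM for WT tumours, 257, 166 and 185 CPM for Kmt2c KO and 343, 271 and 334 CPM for Kmt2d KO tumours (Kmt2c KO against WT -0.79 ± 0.22, adjusted p = 0.0407). The difference between classes in this change was not called, at -0.41 ± 0.26 for endothelial-gated (adjusted p = 0.63) and 0.36 ± 0.23 for macrophage-gated against tumour cells (adjusted p = 0.57). Both stromal calls were lost without single libraries: over 10 alternatives the adjusted p ran from 0.00014 to 0.11 in endothelial-gated and from 0.022 to 0.21 in macrophage-gated cells, while the fold change stayed negative in all of them. Tumour RNA in these gates was estimated from Cox7b2, which tumour cells express at 49.8 to 61.6 CPM, as if stromal cells made none of it. Cox7b2 stood at 7.62% of the tumour level in endothelial-gated cells (95% exact Poisson interval 3.65% to 14.0%) and at 26.3% in macrophage-gated cells (18.3% to 36.6%). Before cells with a Krt8 UMI were left out, Krt8 stood at 39.2% of its tumour level in the endothelial and 51.3% in the macrophage gate. The part of such RNA in the stromal difference was not tested.

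**Figure D3:**
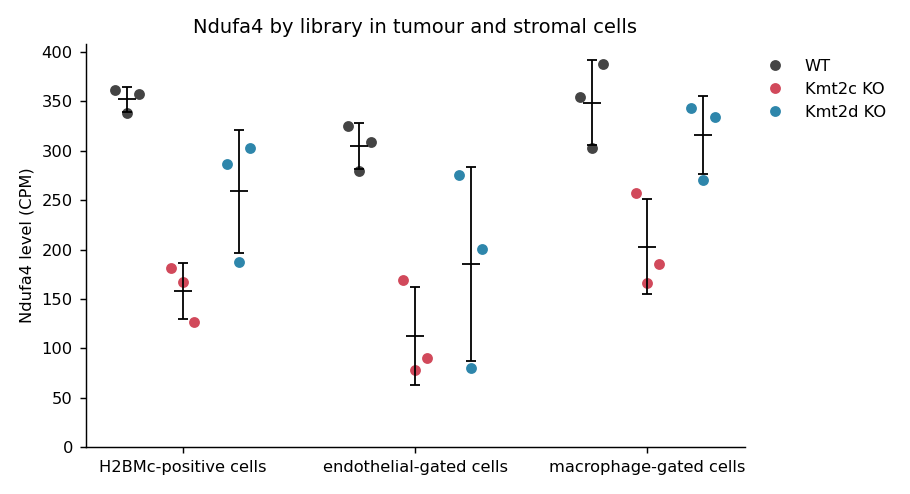
Level of Ndufa4 (y axis, CPM, from 0) in each library for H2BMc-positive, endothelial-gated and macrophage-gated cells, coloured by the genotype of the tumour, with the mean ± SD of 3 libraries. In all 3 cell classes the Kmt2c KO points lie below the WT points, at 127 to 181 against 338 to 362 in H2BMc-positive cells.

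In endothelial-gated cells of Kmt2c KO against WT tumours, 8 of 88 members tested were called, where 7.23% of 5170 genes were. The 7 lower members included Ndufa4, Ndufb1-ps (-0.96), Ndufa5 (-0.87), Cox7a2l (-0.85), Atp5c1 (-0.85) and Ndufb5 (-0.72 on the log2 scale). Ndufa10, an accessory subunit of complex I, was higher, at 107, 99.8 and 111 CPM in WT and 156, 268 and 343 CPM in Kmt2c KO tumours (1.30 ± 0.29, adjusted p = 0.0118). The members lower in endothelial-gated cells were not all lower in fibroblast-gated cells, where genotypes were not tested: in Kmt2c KO against WT tumours Ndufb1-ps stood at 109 ± 10.4 against 70.0 ± 5.39 CPM, Atp5c1 at 254 ± 43.3 against 186 ± 39.2 CPM and Ndufa4 at 154 ± 32.8 against 213 ± 16.8 CPM (SD, n = 3 each). Means in Kmt2c KO tumours were also above WT there for Ndufa5, Cox7a2l and Ndufb5. The same held for Cox6b1 (353 against 285 CPM), not called in endothelial-gated cells, whereas Atp5a1 and Sdhc were below WT. In that gate the ratio of mitochondrial to nuclear member UMIs was 5.20, 3.61 and 3.84 in WT and 1.96, 2.02 and 3.42 in Kmt2c KO libraries. The part of this shift in these levels was not tested, and whether fibroblast-gated cells are stroma was not settled, as described below. The difference of Ndufa10 between Kmt2c KO and WT tumours was larger in endothelial-gated than in H2BMc-positive cells by 1.35 ± 0.25, and that of Ndufa1 differed between the same classes by -0.83 ± 0.25 (adjusted p = 1.01e-05 and 0.037 by edgeR). In that test 2.42% of all genes were called. The same test for macrophage-gated cells called 0 of 94 members by edgeR, with 6 at an unadjusted p below 0.05 (12.7% of all genes), where 3.31% of all genes were called. In endothelial-gated cells the median over members for Kmt2c KO against WT was -0.41, against -0.01 over all genes, and 79 of 88 were negative. Leaving out 1 library at a time gave 0 to 15 called members, with 0 without Kmt2c KO library 3, 1 without WT library 3 and 15 without Kmt2d KO library 2, where 1.99%, 3.02% and 10.5% of all genes were called. In macrophage-gated cells Ndufa4 was the single member called of 88, where 6.74% of 4736 genes were, and mt-Nd3 was at 507, 413 and 520 CPM in WT and 320, 291 and 257 CPM in Kmt2c KO tumours (-0.70, adjusted p = 0.062). Between Kmt2d KO and WT tumours no member was called in either class by edgeR, with 0.135% and 0% of all genes called. At an unadjusted p below 0.05 there were 4 endothelial-gated and 2 macrophage-gated members, where 10.3% and 8.49% of all genes were.

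Hypoxic tumour cells were gated as the 20% of H2BMc-positive cells in each library with the largest share of UMIs from 16 hypoxia genes. None of the 16 is a member, and cells needed at least 2000 UMIs. The lowest share inside the gate was 821 to 934 CPM in WT and 815 to 1440 CPM in Kmt2d KO libraries. In Kmt2c KO libraries it was 1668 to 3492 CPM, so that the gate does not mark equal hypoxia across genotypes. Vegfa, at 47.0 to 149 CPM in hypoxic and 14.8 to 45.6 CPM in other cells, and Slc2a1, at 130 to 1115 against 39.5 to 84 CPM, are both on the list, so that their levels describe the gate and do not test it. The 2 classes were compared within libraries. Nuclear and mitochondrial members parted here: 62 of the 80 nuclear members tested were lower in hypoxic cells and 5 higher, whereas 6 of the 13 mitochondrial members were higher and 1 lower. Among 12588 genes 41.5% were called, 21% lower and 20.4% higher. The nuclear median was -0.24, the mitochondrial median 0.13 and the median of all genes 0.002. Over 17 alternatives the nuclear median ran from -0.29 to -0.15 and the mitochondrial median from 0.03 to 0.18, and the values nearest to 0 were those of cells with no Mki67 or Top2a UMI. Without TMM scaling all genes shifted by -0.076, nuclear members stood at -0.32 and mitochondrial members at 0.05.

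The summed nuclear level of every complex was lower in hypoxic than in other cells in 9 of 9 libraries, by a log2 ratio of -0.42 to -0.24 for all nuclear members. Complex V fell in 15 of 17 members (median -0.26), complex I in 30 of 38 with 2 higher (-0.25), complex III in 5 of 8 with 1 higher (-0.30), complex II in 4 of 4 (-0.18) and complex IV in 8 of 13 with 2 higher (-0.18). Atp5g1, a ring subunit gene of the ATP synthase, had the largest fall. Its level ran from 271 to 380 CPM in hypoxic cells, with a median of 331, and from 467 to 572 CPM, with a median of 513, in the other cells of the same 9 libraries. The classes did not overlap, and the log2 fold change was -0.59 ± 0.05 (adjusted p = 1.44e-07). Atp5g1, Atp5g2 and Atp5g3 encode the same mature protein, and of their UMIs Atp5g1 made up 18.2% in other and 14.6% in hypoxic cells, Atp5g2 44.5% and 51.3%, and Atp5g3 37.4% and 34.1%.

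Other nuclear members with clear falls came from every complex. Ndufa5 of complex I stood at 68.5 to 125 CPM in hypoxic and 131 to 179 CPM in other cells (-0.55 on the log2 scale). Sdhb, the iron-sulfur subunit of complex II, ran from 129 to 206 CPM against 244 to 293 CPM (-0.47 ± 0.05, adjusted p = 1.9e-06). Uqcr10 of complex III was at 185 to 321 against 319 to 437 CPM (-0.46), and its core protein gene Uqcrc1 fell by 0.43. Cox5b of complex IV was at 429 to 652 against 686 to 816 CPM (-0.38 ± 0.05, adjusted p = 8.99e-06). Atp5k was at 48.9 to 98.6 against 84.7 to 142 CPM (-0.51), and Ndufc1, Atp5o, Atp5j and Atp5g3 fell by 0.43, 0.42, 0.40 and 0.40. Ndufa4 fell by 0.34, whereas Uqcrfs1 (-0.05 ± 0.06) was not called.

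A small set of members went the other way. Ndufv3, an accessory subunit of the NADH-oxidising arm of complex I, stood at 172 to 195 CPM in hypoxic and 119 to 153 CPM in other cells, with no overlap (0.46 ± 0.05), and Ndufa6, Uqcrh and Cox7a2l rose by 0.18, 0.14 and 0.26. Cox6a2 also passed (1.02) but stayed at or below 4.33 CPM. Among mitochondrial members mt-Co1, the catalytic subunit of complex IV, was higher in hypoxic cells of 9 of 9 libraries, at 3678 to 5170 against 3169 to 4960 CPM (0.33 ± 0.05, adjusted p = 4.81e-05). Rises were also called for mt-Nd6 (0.28), mt-Co3 (0.23), mt-Atp6 (0.19), mt-Nd4 (0.17) and mt-Atp8 (0.16), and mt-Nd1 fell by 0.13. The alternative subunit Ndufa4l2, a known hypoxia-induced gene in other cells, was at 2.14 to 4.90 CPM in hypoxic and 2.07 to 5.30 CPM in other tumour cells (0.02 ± 0.18), and Cox4i1 was not called (-0.07). By genotype the estimates for Ndufa4l2 were 0.74 ± 0.35 for WT, -0.45 ± 0.23 for Kmt2c KO and 0.17 ± 0.23 for Kmt2d KO tumours (adjusted p = 0.15, 0.13 and 0.67 by edgeR), and the difference between Kmt2c KO and WT tumours was -1.18 ± 0.42 (adjusted p = 0.099).

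The summed mitochondrial level was higher in hypoxic cells of 7 of 9 libraries and lower in Kmt2c KO libraries 2 and 3, with log2 ratios from -0.25 to 0.30. The mitochondrial genes of complexes IV and V were higher in 7 of 9 libraries each, whereas those of complex I and mt-Cytb of complex III were each higher in 5 and lower in 4, with a median log2 ratio of 0.0004 for complex I and 0.0035 for mt-Cytb. The ratio of mitochondrial to nuclear member UMIs was higher in hypoxic cells of 9 of 9 libraries, at 1.20 to 1.74 against 0.948 to 1.50, by least in Kmt2c KO library 3 (1.52 against 1.50). Cell division moved with the gate: the cycle genes Mki67 and Top2a summed to 77.5 to 316 CPM in hypoxic and 264 to 497 CPM in other cells. Among cells with no UMI of either gene 38 members were called, 34 lower and 4 higher, where 29.1% of all genes were. Atp5g1 (-0.38 ± 0.06), Sdhb (-0.38 ± 0.06) and Uqcrc1 (-0.39 ± 0.06) remained lower there, and Ndufv3 (0.43 ± 0.07), Cox7a2l (0.26 ± 0.09), mt-Co1 (0.20 ± 0.06) and Ndufa6 (0.15 ± 0.06) remained higher. Of the 6 mitochondrial members called higher with all cells, mt-Co1 was the single one still called, and the mitochondrial median was 0.03 against -0.03 over all genes. Of the genes that build and control the chain, 19 of 43 assembly factors fell and 2 rose (Surf1 and Ttc19). Among the 16 regulators listed 5 fell, with Tfb1m (-0.49) and Tfam (-0.25) of mitochondrial transcription among them, while Yy1 rose. In the main comparison 21% of all genes fell and 20.4% rose. Outside the rule, Cycs, the gene for cytochrome c, fell by 0.58, Ndufab1 by 0.32, Cyc1 by 0.30 and Atp5if1 by 0.28.

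**Figure D4:**
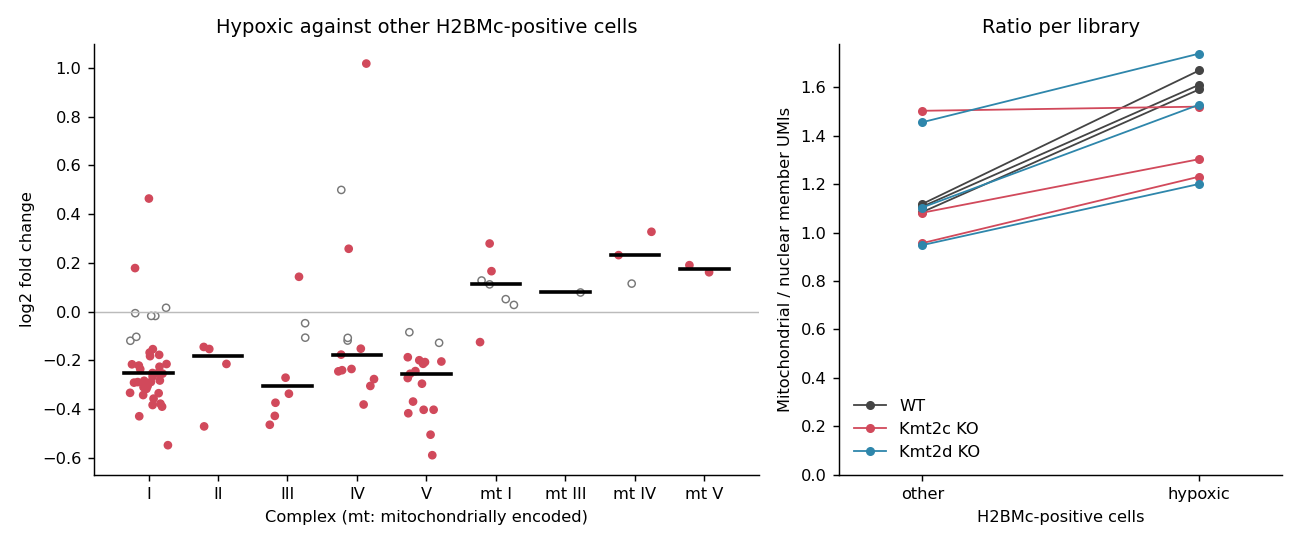
Left, log2 fold change of each member (points) in hypoxic against other H2BMc-positive cells by complex, with mitochondrially encoded genes (mt) on the right of the axis, called members filled and medians as lines; most nuclear members lie below 0. Right, ratio of mitochondrial to nuclear member UMIs in other and hypoxic cells, with a line per library coloured by genotype; all 9 lines rise, from 0.948 to 1.50 up to 1.20 to 1.74.

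Within each genotype most called nuclear members were lower, with 64 lower and 1 higher of 80 in WT tumours (11.6% and 9.83% of all genes), 42 lower and 4 higher in Kmt2c KO tumours (18.8% and 19.4%) and 42 lower and 2 higher in Kmt2d KO tumours (10.3% and 9.87%). Negative estimates were found for 73, 65 and 72 of the 80. The limit of the gate was higher in every Kmt2c KO library than in any WT library, so that these classes are not alike between genotypes. Of the 13 mitochondrial members, 7 were called higher and none lower in WT tumours, 2 higher and 1 lower in Kmt2c KO tumours and 2 higher and none lower in Kmt2d KO tumours. The difference between Kmt2c KO and WT tumours in the hypoxic change was called for 5 of 93 members, where 7.44% of all genes were. Cox7a2l changed by 0.57 ± 0.08 in Kmt2c KO and 0.00 ± 0.08 in WT tumours, and stood at 257 to 270 CPM in hypoxic and 187 to 215 CPM in other Kmt2c KO cells. Sdhd, Cox5a and Uqcrfs1 were lower in hypoxic cells of WT tumours by estimate (-0.47, -0.38 and -0.24) and near 0 or above it in Kmt2c KO tumours (-0.06, 0.04 and 0.16). For mt-Cytb the estimates were 0.22 in WT and -0.10 in Kmt2c KO tumours. This difference was called for no member without WT library 1, WT library 2 or Kmt2c KO library 2, where 1.36%, 1.01% and 1.1% of all genes were called, and for 13 without Kmt2c KO library 1, where 12% were. Between Kmt2d KO and WT tumours no member and 0% of all genes differed in the hypoxic change by edgeR, with 7 members and 6.28% of all genes at an unadjusted p below 0.05, and DESeq2 called no member either.

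Stromal cells were gated by at least 2 markers of their type, fewer than 2 of any other, and no UMI of H2BMc or Krt8. In the 427 endothelial-gated cells (2454400 UMIs) 65 of 93 members were lower than in tumour cells and 6 higher, where 60.9% of all genes were called, 35.4% lower. The nuclear median was -0.44 and the mitochondrial median -0.23, against -0.19 over all genes. Atp5g2 (-1.12 ± 0.09), Atp5b (-1.19 ± 0.10), Cox8a (-1.03 ± 0.08) and Ndufb9 (-1.30) were among the lower members, all 4 complex II genes were lower, and Atp5j (0.86), Uqcrb (0.42) and Ndufv3 (0.39) were higher. In the 864 macrophage-gated cells (2486124 UMIs) the nuclear and mitochondrial genes parted again: 62 of 81 nuclear members were lower and 3 higher, and 12 of 13 mitochondrial members were higher and none lower. Among all genes 61.4% were called, 35.2% lower and 26.2% higher. Medians were -0.54 for nuclear and 0.45 for mitochondrial members, against -0.23 over all genes. Over 14 alternatives the mitochondrial median ran from 0.35 with at least 3 markers to 0.91 with no limit on mitochondrial counts. The largest mitochondrial differences were mt-Co1 (0.93 ± 0.07), mt-Nd5 (0.78 ± 0.09) and mt-Nd6 (0.72 ± 0.18), and among nuclear members Atp5b (-1.43 ± 0.10), Ndufa12 (-1.27) and Ndufb9 (-1.27) were lower, Ndufv3 (0.27) was higher, and Cox7a1 (1.50) and Cox6b2 passed on few UMIs. T and NK cells (381 gated cells, tested in 4 libraries) had 60 members lower and none higher, where 38.9% of all genes were called, 22.7% lower. The nuclear median was -1.04 against -0.43 over all genes. With 1 library left out 40 to 56 members were called, always fewer than with all 4. For those fits the share of all genes called is not given, so that the drop cannot be read as particular to the members.

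The ratio of mitochondrial to nuclear member UMIs had a median over the 9 libraries of 1.17 in tumour cells, with a range of 0.987 to 1.51. Medians and ranges were 1.30 (0.667 to 2.81) in mural-gated, 1.66 (0.988 to 1.99) in endothelial-gated, 2.44 (2.08 to 2.84) in macrophage-gated, 2.63 (0.943 to 4.49) in T and NK-gated, 3.02 (1.10 to 4.78) in dendritic-gated and 3.34 (1.96 to 5.20) in fibroblast-gated cells. Macrophage-gated and fibroblast-gated libraries did not overlap with tumour-cell libraries, and the other 4 classes did. Over pooled UMIs the order differed, with T and NK-gated cells at 1.96 below macrophage-gated cells at 2.52. The limit on mitochondrial counts had removed 13.7% of macrophage-gated and 4.69% of endothelial-gated cells. Median UMIs per cell were 2234.5 in macrophage-gated and 4302 in endothelial-gated cells, against 11694 in tumour cells. Whether the 2406 fibroblast-gated cells are stroma could not be settled from their markers, because 28.3% of H2BMc-positive cells held at least 2 fibroblast markers and Cox7b2 stood at 83.6% of its tumour level in the gated cells. In them 79 members were lower and 13 higher than in H2BMc-positive cells, where 59% of all genes were called, 29.7% lower and 29.3% higher.

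Alternative subunits set 1 stromal class apart. In the 113 mural-gated cells, the pericytes and smooth muscle of vessels, Ndufa4l2 was at 934 CPM (333 UMIs) and Ndufa4 at 16.8 CPM (6 UMIs), whereas in tumour cells Ndufa4l2 was at 3.65 and Ndufa4 at 234 CPM. Ndufa4l2 thus held 91.3% to 100% of the pair's UMIs in mural-gated cells, with a median of 98.6%, and 0.653% to 3.55% in tumour cells of the same 9 libraries. Cox4i2, the low-oxygen form of a complex IV subunit, was at 1150 CPM (410 UMIs) beside Cox4i1 at 1089 CPM in mural-gated cells, and at 0.28 beside 1005 CPM in tumour cells. Its share of that pair was 27.3% to 58.8% in mural-gated and at most 0.084% in tumour cells. Both shares were higher in mural-gated cells of 9 of 9 libraries. A library held 3 to 25 mural-gated cells and 1 of 9 reached the 20 needed for a test across genes, so that these shares rest on few cells. In endothelial-gated cells Ndufa4l2 was at 4.07 and Cox4i2 at 3.67 CPM, from 10 and 9 UMIs.

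Cox7b2 and Cox6a2 were also uneven between classes. Cox7b2, a testis-type form of a complex IV subunit, held 12386 UMIs in tumour cells at 53.5 CPM, 0 UMIs in mural-gated and in T and NK-gated cells, and 1 UMI in dendritic-gated cells. A count of 0 allows up to 19.4% of the tumour level in mural-gated and 11.6% in T and NK-gated cells (95% exact Poisson bounds, counting error only). Cox6a2 reached 38.8 CPM in the 186 dendritic-gated cells, from 22 UMIs in 3 libraries. By library it ran from 0 to 359 CPM with a median of 0, so that the pooled level rests on few libraries. In macrophage-gated cells all 21 of its UMIs were in Kmt2c KO library 2, and it was not called there (1.23 ± 0.82, adjusted p = 0.20).

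**Figure D5:**
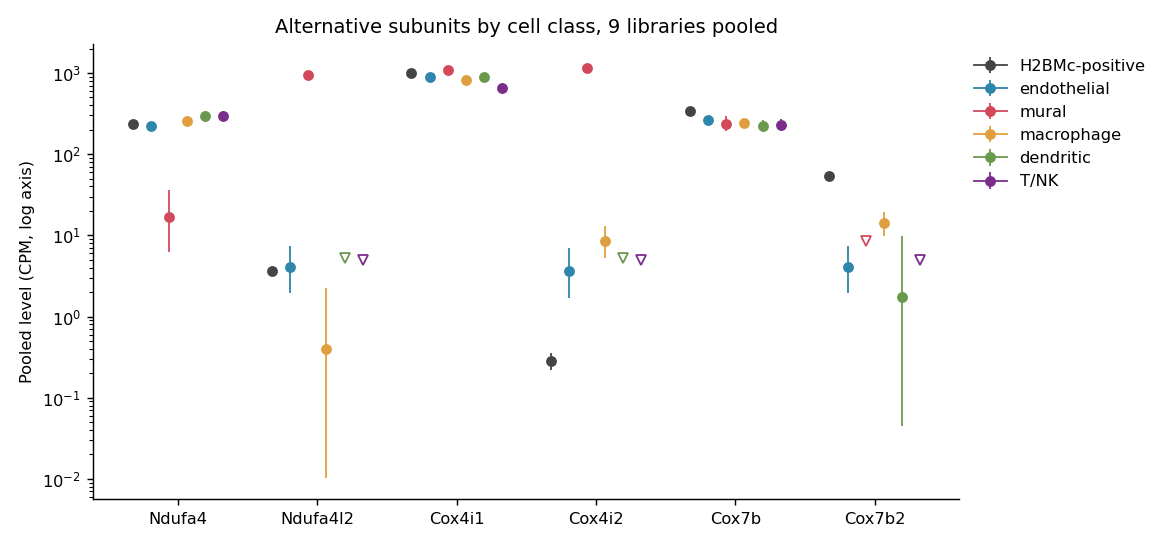
Pooled level (log axis, CPM over 9 libraries) of Ndufa4, Ndufa4l2, Cox4i1, Cox4i2, Cox7b and Cox7b2 in tumour and gated stromal cells, coloured by class. Bars are 95% exact Poisson intervals and cover counting error only, and open triangles mark the limit of 3 counts where none was found; mural-gated cells stand at 934 for Ndufa4l2 and 16.8 for Ndufa4, tumour cells at 3.65 and 234.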

How the data were processed

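Percoll-purified suspensions of 9 primary 168FARN tumours were sequenced as single-cell RNA libraries. Per the labels, the authors used Cell Ranger 7.0.1 and build mm10; the deposited matrix holds whole-number UMI counts per gene and barcode, with libraries joined by Cell Ranger's aggregation, and no source used here says whether depth was equalised in that step. The genotype of each library came from a letter in the table of the authors' aggregation: C was taken as Kmt2c KO, D as Kmt2d KO and X as WT. Numbers 1 to 3 only name libraries. Nothing says how far the tumours were handled separately after injection, so that p-values measure the spread between these libraries. The fit shares that spread between genes. In the T and NK comparison and the test of the difference for endothelial-gated cells, a gene's own spread between libraries had next to no weight.

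Cells with over 500 and under 7500 genes and under 15% mitochondrial counts were kept, the limits of the study. The mitochondrial members are part of that last measure. No doublet caller was run; leaving out the 5% of cells with the most UMIs was an alternative. Stromal gates needed at least 2 own markers, fewer than 2 of any other class and no UMI of H2BMc or Krt8. Libraries under 20 gated cells were left out of tests across genes. The mural shares are described over all 9 libraries. UMI counts were summed per library and class, because cells are not replicates, and tested in edgeR 4.0.16 (R 4.3.3) by glmQLFit and glmQLFTest after filterByExpr and TMM, with genotype as the factor, or with the library as a block for hypoxic and stromal cells against others. All p-values were adjusted over all genes tested, and every adjusted p in the text is from this test. SE is the absolute log2 fold change divided by the square root of F. DESeq2 1.42.0 was an alternative. The other alternatives were scaling without mitochondrial genes or without TMM, no filter on low counts, the groups compared alone, other cell limits, tumour-cell definitions and gates, and each library left out in turn. CPM is counts per 1000000 UMIs of the class. Intervals and the limit of 3 counts cover counting error only.

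On simulated data the fit recovered 16%, 74% and 96% of genes changed by 0.3, 0.6 and 1 on the log2 scale for Kmt2c KO against WT (14035 genes). For hypoxic against other cells it recovered 44%, 92% and 100% (12473 genes). The simulation used a single fixed dispersion for all genes and groups and changed only genes above a minimum mean count. The real libraries differed in spread between groups, so that these shares are not the power of the real comparisons.

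The members, marker, assembly (43 genes) and regulator (16 genes) lists were chosen with earlier results of these data known. Genes named are the mitochondrial members, the 10 largest called nuclear members per contrast, the tissue forms and their partners, the Sdh genes and core subunits, and any others are named after their values were seen. Sequences are RefSeq's (GRCm38.p6). Members have coordinates from the feature annotation of the same assembly. The values of 1 member are not reported here, and it is included in the counts, sums and medians.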

Additional observations from a re-analysis of the deposited data

Results flagged for a closer look

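The 7 results below were picked out because the change differed between groups by a test of the difference itself (an interaction term in edgeR, adjusted over all genes). For the hypoxic change, Kmt2c KO minus WT, they were Cox7a2l (0.56), Cox5a (0.42), Sdhd (0.41), Uqcrfs1 (0.39) and mt-Cytb (-0.32 on the log2 scale), among 7.44% of all genes called. With a single hypoxia limit for all libraries none of them was called, where 0.0385% of all genes were, and the estimates were 0.35, 0.35, 0.41, 0.31 and -0.15 in the same order, each with the same sign.

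For the change between Kmt2c KO and WT tumours, endothelial-gated minus H2BMc-positive cells, they were Ndufa10 (1.35 ± 0.25, adjusted p = 1.01e-05) and Ndufa1 (-0.83 ± 0.25, adjusted p = 0.037), where 2.42% of all genes were called. In endothelial-gated cells Ndufa1 stood at 205, 194 and 242 CPM in WT and 189, 146 and 95.7 CPM in Kmt2c KO tumours, and Ndufa10 at 107, 99.8 and 111 CPM against 156, 268 and 343 CPM. No member was called in the same comparison of macrophage-gated cells, where 3.31% of all genes were.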

How the results depend on the processing

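No paired analysis was possible because, between genotypes, the names of the libraries carry no replicate number of the labels; comparisons of cell classes used the library as a block. With 1 library left out, 12 to 34 members were called for Kmt2c KO against WT (20 with all). The range was 0 to 8 for Kmt2d KO against WT (3) and 0 to 10 for Kmt2d KO against Kmt2c KO (0). For hypoxic against other cells it was 68 to 77 (74). For the difference in hypoxic change from WT it was 0 to 13 for Kmt2c KO (5) and 0 to 0 for Kmt2d KO (0). Against tumour cells it was 65 to 70 for endothelial-, 70 to 76 for macrophage-, 40 to 56 for T and NK- and 91 to 93 for fibroblast-gated cells. For Kmt2c KO against WT within endothelial-gated cells it was 0 to 15 (8), where 1.99% to 10.5% of all genes were called. Within macrophage-gated cells it was 0 to 3 (1), where 2.37% to 9.9% were. Shares of all genes for several other fits are given with the results above. Where no share is given, a change in the count cannot be read as particular to the members. For Kmt2d KO against WT, DESeq2 called 10 (4.99% of all genes), and the groups compared alone, cells with no Mki67 or Top2a UMI and all cells outside the stroma gates gave 1 each (1.36%, 1.49% and 1.65%). For Kmt2d KO against Kmt2c KO, DESeq2 called 2 (4.12%) and no filter 1 (2.22%). In cells with no Mki67 or Top2a UMI 38 members were called for hypoxic against other cells. The difference in hypoxic change of Kmt2c KO from WT gave 9 without the filter (5.63%), 1 with the top 10% as hypoxic (1.46%), 0 with a single limit (0.0385%) and 12 with no Mki67 or Top2a UMI (7.54%). DESeq2 called 2 members for Kmt2c KO against WT in endothelial-gated (4.7%) and 0 in macrophage-gated cells (4.33%). Directions reversed for Cox5a in hypoxic cells (0.071 with no Mki67 or Top2a UMI) and, in macrophage-gated against tumour cells, for mt-Cytb (-0.0050 with 3 markers), mt-Nd1 (0.53 with no mitochondrial limit) and Cox6a2 (-7.38 without Kmt2c KO library 2, which held all its UMIs, to 1.93 without Kmt2c KO library 3). The cause was not tested for the others. Mural-gated cells had too few libraries for a test across genes, so that its alternatives were not run. Alternatives added after seeing the data were cells below a single hypoxia limit, the hypoxic comparison in cells with no Mki67 or Top2a UMI, and the genotype comparison within stroma. H2BMc-positive cells of WT libraries were the fewest, at 361 to 925 per library, and gated classes held fewer UMIs per cell than tumour cells, which limits what low genes can show.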
